A study of Mus musculus with 6 samples.

Results

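Layer 5 of the mouse cerebral cortex was picked out as 800 of 13334 Visium spots that held at least 1000 unique molecular identifiers (UMIs, each counting 1 captured RNA molecule) and lay over tissue. The spots were ranked by a score, the sum over 5 genes (Fezf2, Myl4, Hs3st2, Dkkl1 and Tnnc1) of the natural log of 1 plus the UMIs per 10000 in that spot, and those at or above the 94th percentile of all 6 sections together were kept. A spot covers several cells, so that layer 5 spots hold glia, vessels and interneurons beside the pyramidal neurons that give the layer its name. The members were thus chosen by measured values of these 5 genes, and what follows about the 5 genes, and about any gene in layer 5 spots against other spots, is a description without a test.

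The sections came from the right hemisphere of female mice whose own Apoe gene had been replaced on both alleles by human APOE4 or APOE3 (E4 and E3 mice). Each genotype gave 1 section from a 12-month mouse that also carried the 5xFAD transgenes, 1 from an aged mouse of 24 months and 1 from a young mouse of 3 months. The 5xFAD transgenes, mutant human APP among them, are driven by the neuronal Thy1 promoter, were brought in by a cross to a B6SJL strain, and the resulting mice lay down amyloid plaques. Age, strain background and transgenes therefore change together in 5xFAD against young and cannot be told apart. With 1 section per group there are no replicates, and intervals given for a single section cover counting error only. The tests across sections use the other genotype, or the other conditions, as replicates. They assume that a condition changes a gene alike in both genotypes, and this assumption was not tested.

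Layer 5 is the main output layer of the cortex. Its large pyramidal neurons send axons below the cortex, to the striatum, brainstem and spinal cord, or across to the other hemisphere, and their dendrites reach up to the surface through the layers above. Fezf2 is the transcription factor that directs the subcortically projecting type, and layer 5 is also a layer where Thy1-driven transgenes are known to be strongly expressed and where plaques appear early in 5xFAD mice.

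The number of layer 5 spots differed between sections. There were 195 in E4 5xFAD and 122 in E3 5xFAD, 21 in E4 aged and 162 in E3 aged, and 148 in E4 young and 152 in E3 young. As a share of the spots of each section this is 8.40% (exact binomial 95% interval 7.30 to 9.60) in E4 5xFAD and 4.80% (4.0 to 5.71) in E3 5xFAD. It is 1.45% (0.902 to 2.21) in E4 aged and 7.57% (6.48 to 8.77) in E3 aged, and 6.60% (5.61 to 7.71) in E4 young and 5.75% (4.89 to 6.71) in E3 young. E4 aged had the fewest. In all sections but E3 5xFAD the deposited tissue mask and the count table did not list the same spots. Positions marked as tissue that had no barcode in the count table, and so no measurement, numbered 610 in E4 5xFAD, 537 in E4 aged, 402 in E3 aged, 469 in E4 young and 435 in E3 young, and 2 in E3 5xFAD. Barcodes outside the mask had a median of 467.5 to 1622.5 UMIs in those 5 sections, against 10085.5 to 15362 for the spots inside it. How much layer 5 the unmeasured positions held is not known, so that the shares refer to the measured spots alone. Distances are to the edge of the mask. In a spot, fewer layer 5 cells and less of their RNA per cell cannot be told apart, and neither can either be told apart from the piece of cortex that a section holds.

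**Figure D1:**
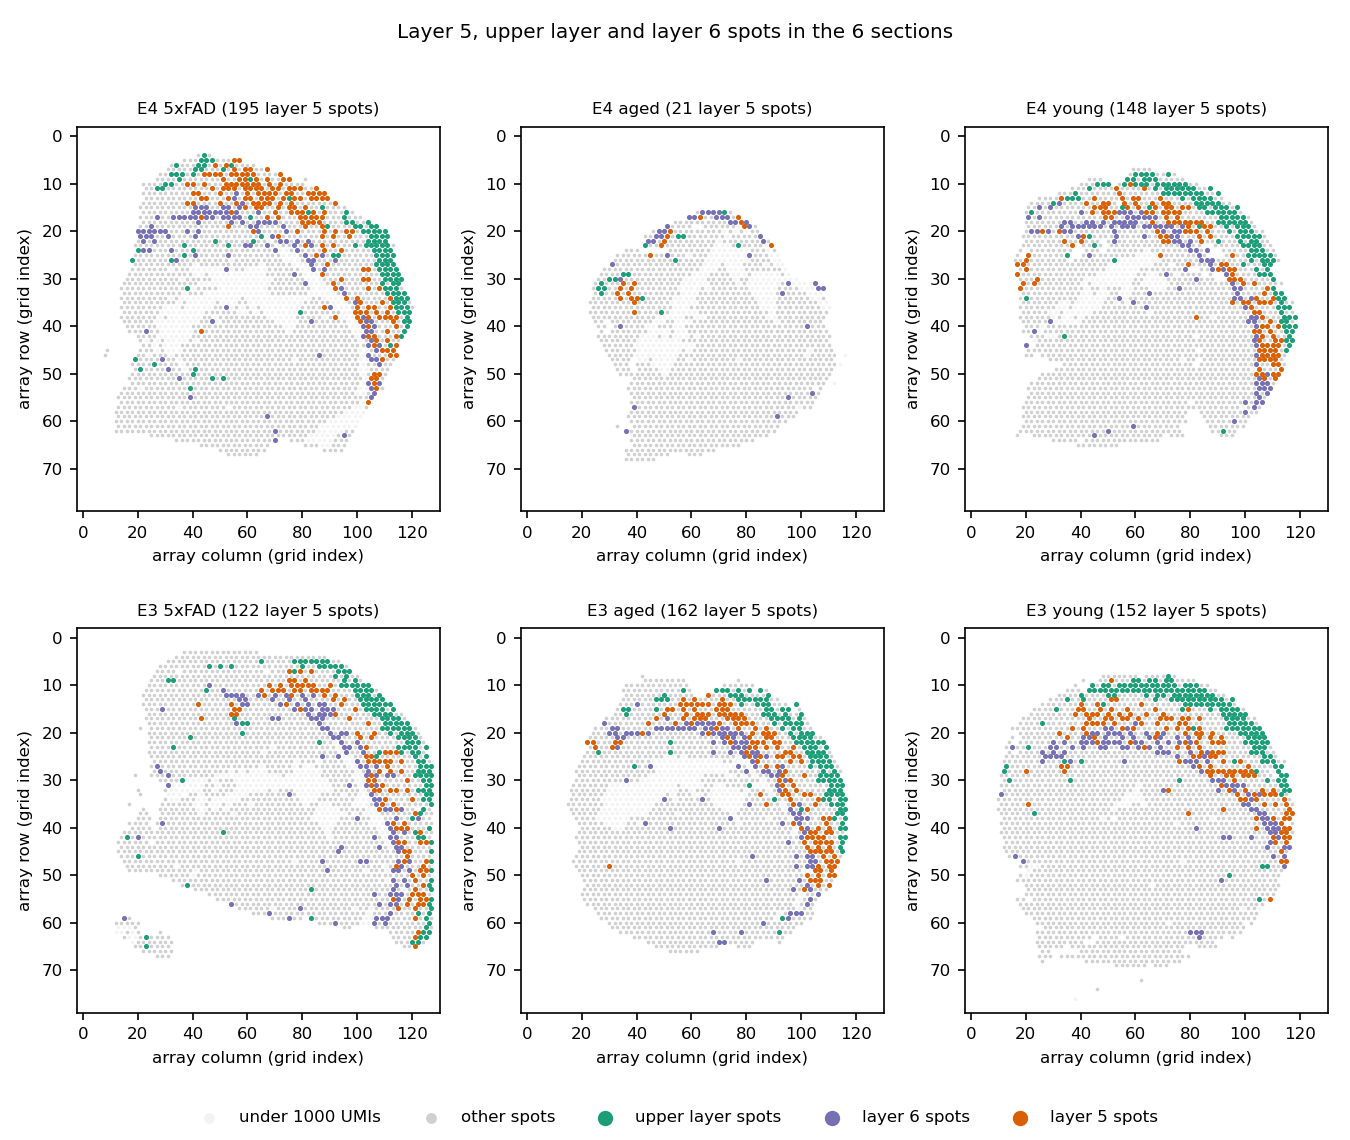
Spots of the 6 sections at their array column and row (grid index), with layer 5, upper layer and layer 6 spots coloured, other spots used in grey and spots under 1000 UMIs in pale grey. Layer 5 spots form an arc between the upper layer and layer 6 spots in the sections other than E4 aged, which has 21 of them against 122 to 195 in the other sections.

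In 5 sections the layer 5 spots lay between the upper layer and layer 6 spots. Their median distance to the nearest position outside the tissue was 5.29 and 6.16 spot pitches in E4 and E3 5xFAD, 6.08 and 7.38 in E4 and E3 aged, and 7.0 and 7.94 in E4 and E3 young. Upper layer spots, chosen in the same way from Cux2, Rasgrf2, Lamp5, Stard8 and Otof, lay at 2.65, 2.00, 3.91, 3.00, 2.65 and 2.65 in the same order, and layer 6 spots, from Hs3st4, Rprm, Syt6, Tle4 and Ccn2, at 9.85, 8.66, 4.47, 10.0, 8.54 and 10.4. Layer 5 was thus deeper than the upper layers in every section and shallower than layer 6 in all but E4 aged. Members also touched one another. Of the grid neighbours of a layer 5 spot, 37.7% and 27.5% were themselves layer 5 spots in E4 and E3 5xFAD, 24.1% and 40.4% in E4 and E3 aged, and 38.0% and 29.1% in E4 and E3 young, whereas for all other spots these shares ranged from 1.02% to 5.58%. Between 4 and 38 members per section had no layer 5 neighbour.

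Layer 5 spots were deeper sequenced than the rest. The median was 18748 UMIs in E4 5xFAD, 12569.5 in E3 5xFAD, 26271 in E4 aged, 19372 in E3 aged, 21925 in E4 young and 16599.5 in E3 young, against 13341, 11129, 11910, 12909.5, 15425 and 13510 in the other spots of the same sections. Their summed UMIs ranged from 533962 in E4 aged to 3580404 in E4 5xFAD. Spots of the same barcode occupy the same grid position on every slide, and up to 58 barcodes were layer 5 spots in both sections of a pair (E3 aged and E4 young). The 5xFAD sections carry another deposited name prefix than the other 4 sections, and no source states whether this marks a slide or run, so that it cannot be told apart from 5xFAD. Genes known from other regions were counted in layer 5 at levels that differed by section, and the source of these UMIs was not tested. The hypothalamic peptide gene Pmch stood at 0.279 CPM (UMIs per 1000000 UMIs summed over the layer 5 spots of a section) in E4 5xFAD and 245 in E3 5xFAD, 74.9 in E4 aged and 176 in E3 aged, and 42.9 in E4 young and 86.1 in E3 young. Ttr, a product of the choroid plexus, stood at 1004, 220, 699, 240, 219 and 964 in the same order, with like sums of choroid genes in upper layer and layer 6 spots.

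The 5 genes of the score were not equally even. Fezf2 stood at 74.3 and 97 CPM in E4 and E3 5xFAD, 41.2 and 79.4 in E4 and E3 aged, and 74.7 and 72.1 in E4 and E3 young. Myl4, a myosin light chain gene, stood at 233, 226, 414, 225, 233 and 221 CPM in the same order. E4 aged was the lowest section for Fezf2 and the highest for Myl4, and the other 5 sections lay close together for Myl4. Hs3st2, a heparan sulphate sulphotransferase gene, ranged from 78.7 in E4 aged to 129 in E3 young, Dkkl1 from 76.4 in E3 young to 98.7 in E3 aged, and Tnnc1, a troponin C gene, from 44.9 in E4 aged to 76.5 in E3 aged. The score rests on few molecules: the median layer 5 spot held 10 UMIs of the 5 genes together in E4 5xFAD, 7 in E3 5xFAD, 15 in E4 aged, 11 in E3 aged, 12 in E4 young and 9 in E3 young.

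The rule cuts a continuous range. Its threshold was a score of 2.61393, the lowest member stood at 2.61462 and the highest spot left out at 2.61392. Within 10% of the threshold lay 236 members and 281 spots that were left out, and the medians were 3.10 in members and 0.313 in the rest, of which 6127 spots scored 0. Fezf2 was seen in 76.4%, 68.0%, 52.4%, 68.5%, 75.7% and 67.8% of layer 5 spots in the order above, against 8.15% to 18.9% of the other spots of a section. Of the members, 129 also reached the layer 6 score and 13 the upper layer score. The overlap with layer 6 was 11.3% of members in E4 5xFAD and 10.7% in E3 5xFAD, 28.6% in E4 aged and 18.5% in E3 aged, and 17.6% in E4 young and 21.1% in E3 young. It was thus smallest in the 5xFAD pair.

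Genes known from layer 5 that the score did not use bore out the label in part. Of 17 such genes, 9 were higher in layer 5 than in upper layer spots in all 6 sections, 6 were higher than in layer 6 spots in all 6, and 5 were higher than both: Etv1, Deptor, Parm1, Tshz2 and Nefh. Against all other spots, Etv1 and Parm1 were again higher in all 6 sections, Deptor and Tshz2 in 4 and Nefh in 0, so that 2 of the 17 exceeded all 3 sets throughout. Etv1, a transcription factor of layer 5 neurons, stood at 108 and 121 CPM in E4 and E3 5xFAD, 221 and 139 in E4 and E3 aged, and 155 and 146 in E4 and E3 young layer 5, while upper layer spots held 46.0 to 57.7 and layer 6 spots 48.3 to 76.9. The ranges do not overlap. Deptor, an inhibitor of mTOR, stood at 18.2 to 26.2 CPM in layer 5, 6.43 to 9.88 in upper layers and 10.2 to 15.7 in layer 6.

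Bcl11b (CTIP2), a transcription factor of subcortically projecting neurons, was lower in layer 5 (43.3 to 71.2 CPM) than in layer 6 (64.1 to 81.5 CPM) in all 6 sections. Pcp4, a calmodulin regulator, and Crym, a thyroid hormone binding protein gene, exceeded layer 6 in 1 section each. Chrna2, a nicotinic receptor subunit gene of deep interneurons, had a mean of 0.162 CPM in layer 5 and could not be used as a marker here. Lratd2 stood at 8.66 to 14.9 CPM in layer 5 of 5 sections and at 1.87 in E4 aged, and Sulf2, a sulphatase gene, at 81.8 to 102 and at 31.8 in E4 aged. The label thus rests on position in the sections other than E4 aged and on Etv1 and Parm1, most of the 17 genes did not set layer 5 apart from all other sets, and the 21 spots of E4 aged differ from it in Lratd2, Sulf2 and Fezf2.

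**Figure D2:**
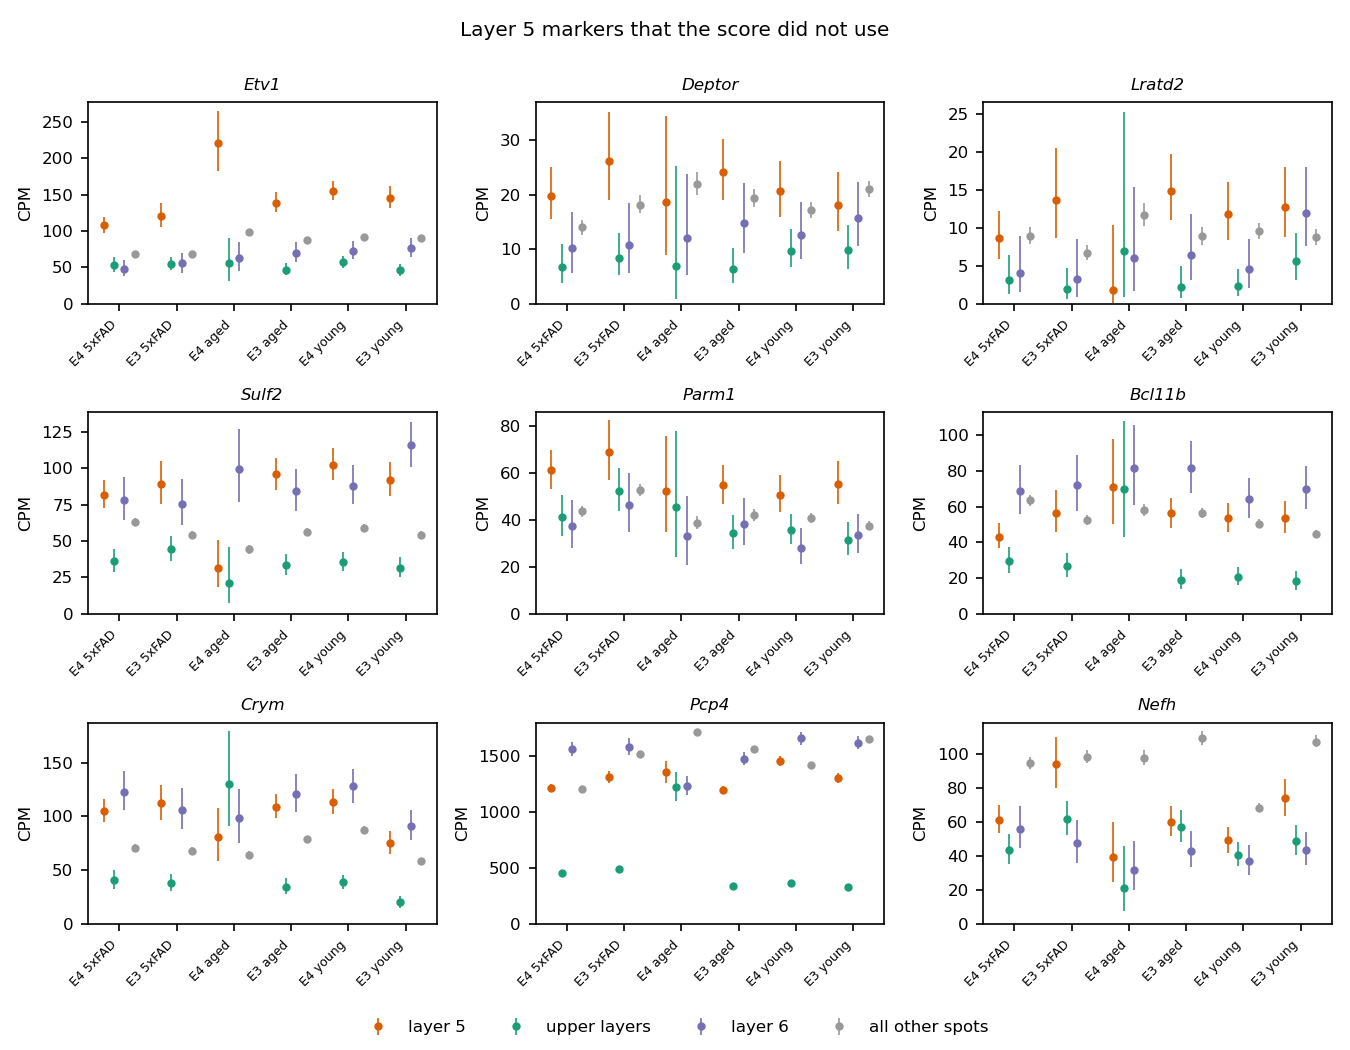
Levels (CPM) of 9 layer 5 markers that the score did not use, in layer 5, upper layer, layer 6 and all other spots, with 1 point per section and exact 95% Poisson intervals. Etv1 lies between 108 and 221 in layer 5 and between 46.0 and 76.9 in the upper layer and layer 6 spots.

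Set against all other spots, layer 5 had 1291 of 7334 genes of at least 20 CPM higher, and 977 lower, in all 6 sections. Beyond the score, the pooled log2 ratio was largest for the T cell receptor constant region gene Trbc2 (1.90), Gm19410 (1.41), the synaptic ligand gene Nxph3 (1.37), Vxn (1.32), the neuropeptide gene Grp (1.27), the GDNF family receptor gene Gfra2 (1.27) and Satb1 (1.24). The thalamic genes Tcf7l2 (-2.82) and Prkcd (-2.80) were lowest. Trbc2 stood at 7.49 CPM in E4 aged layer 5 and at 28.0 to 65.9 in the other 5 sections.

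Human APP was found in layer 5 of the 5xFAD sections. It (hAPP) stood at 137 CPM (491 UMIs, exact Poisson 95% interval 125 to 150) in E4 5xFAD and 121 (203 UMIs, 105 to 139) in E3 5xFAD, with 1 UMI in E3 aged, 1 in E3 young and 0 in the E4 aged and E4 young sections, where a count of 0 allows up to 5.62 and 0.907 CPM (3 counts). It was 776-fold higher than in young layer 5 (139 to 3.07e+04), a ratio that rests on 1 UMI.

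The transgene was more abundant in layer 5 than in the upper layers of the same sections. hAPP stood at 65.0 CPM in E4 5xFAD and 45.3 in E3 5xFAD upper layers, a log2 ratio of layer 5 to upper layers of 1.08 (0.81 to 1.35) in E4 and 1.42 (1.08 to 1.76) in E3. Against layer 6 the hAPP ratio was 0.12 (-0.12 to 0.38) in E4 5xFAD, an interval that includes 0, and 0.85 (0.47 to 1.24) in E3 5xFAD.

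Thy1, the gene of a neuronal surface glycoprotein whose promoter drives the transgenes, stood at 7788 CPM in E4 5xFAD and 6478 in E3 5xFAD layer 5, 993 and 879 in E4 and E3 aged, and 766 and 874 in E4 and E3 young. Both 5xFAD sections were above all 4 others. It rose in 5xFAD against young by 3.02 ± 0.13 on the log2 scale (SE, edgeR quasi-likelihood test, Benjamini-Hochberg adjusted p = 9.57e-15). In upper layers it stood at 4318 and 3305 CPM in E4 and E3 5xFAD, 683 and 798 in E4 and E3 aged, and 770 and 756 in E4 and E3 young. The log2 ratio of layer 5 to upper layers was 0.85 (0.82 to 0.88) and 0.97 (0.93 to 1.01) in E4 and E3 5xFAD, 0.54 (0.30 to 0.78) and 0.14 (0.06 to 0.22) in E4 and E3 aged, and -0.01 (-0.09 to 0.07) and 0.21 (0.12 to 0.30) in E4 and E3 young. The change was larger in layer 5 than in upper layers by 0.82 ± 0.10 (adjusted p = 4.92e-05 in the fit of the difference), and larger than in layer 6 by 0.26 (adjusted p = 0.671). The counts do not separate transcripts of the mouse Thy1 gene (chromosome 9, 44043384 to 44048579, plus strand, GRCm38) from transgene transcripts that carry Thy1 sequence.

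Mouse App, the precursor of mouse amyloid beta, stood at 1134 and 1238 CPM in E4 and E3 5xFAD, 1352 and 1232 in E4 and E3 aged, and 1247 and 1244 in E4 and E3 young, with -0.16 ± 0.12 in 5xFAD against young (adjusted p = 0.786). The 6 sections lay close together. Human APOE (hAPOE), made mainly by astrocytes and reactive microglia, stood at 867, 744, 611, 512, 559 and 584 CPM in the same order. Both 5xFAD sections were the highest, and the change of 0.40 ± 0.12 did not pass (adjusted p = 0.122).

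**Figure D3:**
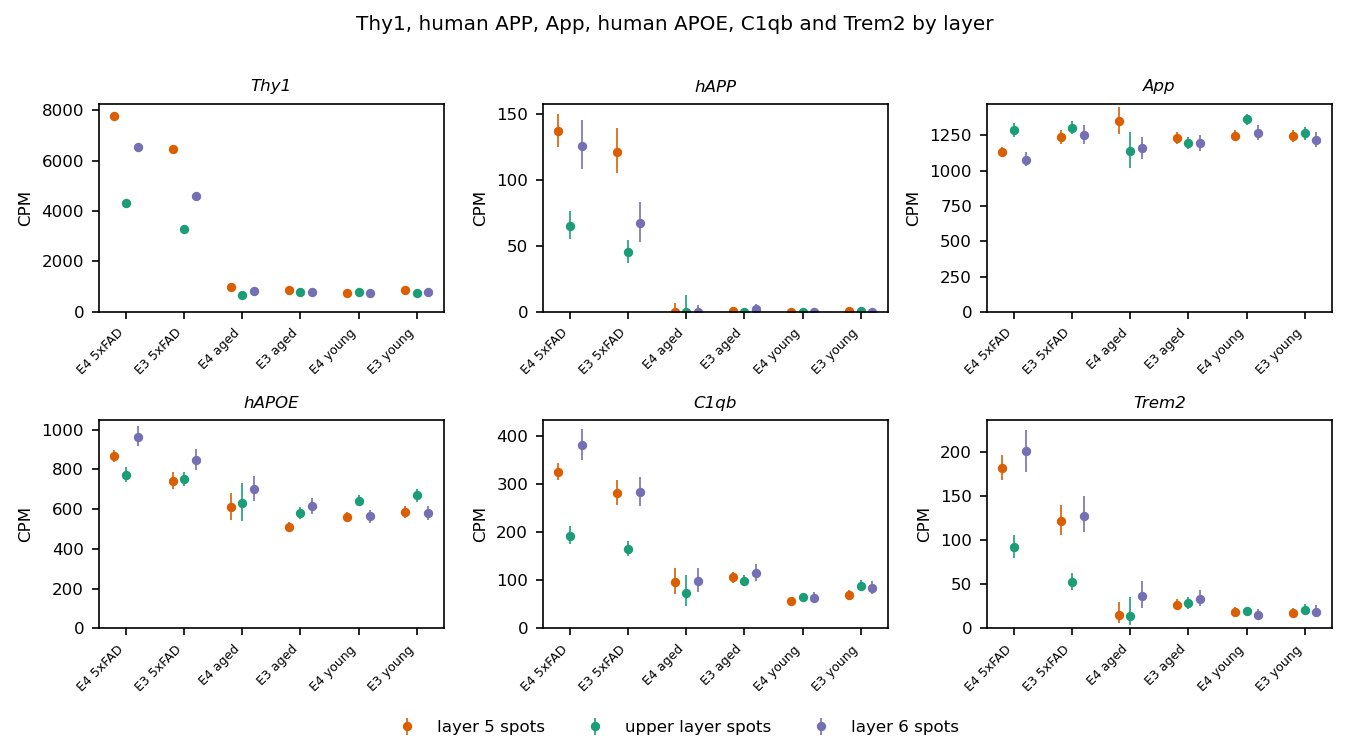
Levels (CPM) of Thy1, human APP (hAPP), mouse App, human APOE (hAPOE), C1qb and Trem2 in layer 5, upper layer and layer 6 spots of each section, with exact 95% Poisson intervals. Thy1 reaches 7788 in E4 5xFAD and 6478 in E3 5xFAD layer 5, against 766 to 993 in layer 5 of the other sections.

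Microglial and complement genes were among the genes higher in 5xFAD layer 5. Over both genotypes 171 of 12358 genes tested passed in 5xFAD against young (1.38%), 125 higher (1.01%) and 46 lower (0.372%), each in the same direction in both genotypes, and the median of all genes was -0.00. Of 34 genes of disease-associated microglia (DAM), the plaque-surrounding state, 21 rose and none fell, with a median log2 fold change of 1.55, which is the same with 2 genes that had no UMI in young layer 5 set at their lower bound. Complement genes rose in 7 of 8 (median 2.03) and genes of homeostatic microglia in 9 of 15 (median 0.92). DESeq2, which called 51 genes in all, called 13, 4 and 1 members of these 3 lists.

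Cst7, a cystatin that marks DAM, had 405 UMIs in E4 5xFAD and 85 in E3 5xFAD layer 5 (113 and 50.6 CPM), 0 and 9 in E4 and E3 aged, and 0 in both young sections. This is at least 183-fold higher than in young layer 5. Trem2, the microglial lipid receptor that the DAM state needs, stood at 182 and 122 CPM in E4 and E3 5xFAD, 15.0 and 26.7 in E4 and E3 aged, and 19.1 and 17.1 in E4 and E3 young. Both 5xFAD sections lay far above the others, and the log2 fold change was 2.99 ± 0.18 (adjusted p = 1.89e-11). Tyrobp, its signalling adaptor, stood at 345 and 254 CPM in E4 and E3 5xFAD, 52.4 and 45.4 in E4 and E3 aged, and 33.6 and 49.2 in E4 and E3 young (2.78 ± 0.17). The lysosomal genes Ctss (2.04 ± 0.16) and Cd68 (2.61) and the lysozyme gene Lyz2 (3.78 ± 0.24) rose as well.

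C1qb, a chain of the complement initiator C1q, stood at 326 and 281 CPM in E4 and E3 5xFAD, 95.5 and 106 in E4 and E3 aged, and 56.9 and 69.0 in E4 and E3 young layer 5 (2.19 ± 0.14, adjusted p = 4.66e-11). C1qa (2.03) and C1qc (1.91 ± 0.15) went with it. C4b, a complement component made by glia, stood at 144 and 90.5 CPM in E4 and E3 5xFAD, 18.7 and 14.9 in E4 and E3 aged, and 4.23 and 6.59 in E4 and E3 young (4.39 ± 0.22, adjusted p = 4.98e-13). The aged sections lay between the 5xFAD and the young ones for both genes. Csf1r, the receptor on which microglia depend for survival, rose by 0.96, and Cx3cr1, the fractalkine receptor gene, by 1.15 (50.6 and 54.8 CPM in E4 and E3 5xFAD against 24.2 and 19.4 in E4 and E3 young). P2ry12, a purinergic receptor gene lost by microglia in the DAM state, stood at 37.1 and 38.7 CPM in E4 and E3 5xFAD and 24.5 and 31.0 in E4 and E3 young (0.37, adjusted p = 0.594).

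Some reactive astrocyte genes rose in 5xFAD layer 5. Gfap, the intermediate filament of reactive astrocytes, stood at 303 and 186 CPM in E4 and E3 5xFAD, 33.7 and 45.1 in E4 and E3 aged, and 22.7 and 17.8 in E4 and E3 young layer 5 (3.49 ± 0.18, adjusted p = 7.23e-13). Of 12 reactive astrocyte genes 5 rose (median 0.82), Vim (1.28) among them, beside 1.01% of all 12358 genes tested. Of 14 general astrocyte genes none passed by edgeR or DESeq2 (median -0.02, 2 with an unadjusted p under 0.05). With 1.38% of all genes called by edgeR in either direction, a list of 14 would hold few calls or none. The summed level of the 14 was 4297 and 4282 CPM in E4 and E3 5xFAD against 3969 and 4495 in E4 and E3 young. MHC class I genes rose in 4 of 9 (median 1.03), with B2m, the light chain, at 382 and 362 CPM in E4 and E3 5xFAD, 148 and 196 in E4 and E3 aged, and 165 and 180 in E4 and E3 young (1.03 ± 0.13). Interferon response genes rose in 6 of 14 (median 1.37), led by Ifi27l2a (3.80). The call of B2m was lost without the E4 young section (adjusted p = 0.066).

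Genes of cholesterol synthesis stood above young layer 5 as a group. All 24 tested had a positive log2 fold change (median 0.46), and 7 passed, among them Fdps, Acat2, Nsdhl, Mvd, Fdft1 and Stard4, of which the last 4 were named after their values were seen. Fdps, the farnesyl diphosphate synthase gene, stood at 193 and 175 CPM in E4 and E3 5xFAD, 114 and 127 in E4 and E3 aged, and 93.2 and 103 in E4 and E3 young (0.83 ± 0.13, adjusted p = 0.000438). The groups did not overlap. Nsdhl, a sterol dehydrogenase gene, stood at 49.4 and 44.6 CPM in E4 and E3 5xFAD and 24.2 and 22.1 in E4 and E3 young. In upper layers the same list had a median of 0.42 and in layer 6 one of 0.17, with 0 members called in each by edgeR, while DESeq2 called 1 in layer 5. Whether the list differs between the layers was not tested. The Fdps call was lost without E4 5xFAD (adjusted p = 0.124), E4 young (0.629) or E3 young (0.0652).

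Lists of layer 5 markers, other neuronal genes, and stress and energy metabolism genes had 0 members called in 5xFAD layer 5. Of all 12358 genes tested 1.38% were called, a share at which lists this short would hold few calls or none. Of 15 other layer 5 markers tested, 0 passed (median -0.13), and so did 0 of 30 synaptic genes (median -0.11), 0 of 14 neurofilament and axon genes (-0.09), 0 of 8 cortical excitatory neuron genes (-0.18), 0 of 19 voltage-gated potassium channel genes (-0.15), 0 of 10 interneuron genes (-0.08), 0 of 17 stress and unfolded protein genes (0.08), 0 of 34 nuclear OxPhos genes (-0.07) and 0 of 20 glycolysis genes (-0.01), by edgeR. Of these 167 genes 20 had an unadjusted p under 0.05, beside 1135 of all 12358 genes tested, and DESeq2 called 0 of the 167. Positive log2 fold changes were seen in 0 of 8 excitatory neuron, 6 of 30 synaptic, 3 of 14 axon and 5 of 19 potassium channel genes. The same held for 10 of 34 nuclear OxPhos, 4 of 10 interneuron, 7 of 15 layer 5, 10 of 20 glycolysis and 12 of 17 stress genes. Whether a list shifted as a whole was not tested. Etv1 was nearest to a call among the layer 5 markers, at -0.50 (adjusted p = 0.153). Snap25, a synaptic vesicle fusion gene, stood at 3977 and 3899 CPM in E4 and E3 5xFAD and 3794 and 3857 in E4 and E3 young, and Nefl, the light neurofilament gene, at 519 and 440 and at 425 and 440. Simulated 2-fold changes in these sums were called in 71.1% of genes, so that changes of this size or below could pass unseen. Myelin genes had a median of -0.15, with 1 of 24 higher, the iron carrier gene Trf (0.58 ± 0.14, adjusted p = 0.0302), and 1 lower. The Trf call was lost without E4 5xFAD (adjusted p = 1.0), without E4 young (1.0) and without E3 young (0.139).

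Immediate early genes, which neurons switch on within minutes of activity, lay lower in 5xFAD layer 5. Of 27, 5 fell and none rose (median -0.37): Nr4a1, Arc, Junb, Btg2 and Ier2. Nr4a1, a nuclear receptor gene, stood at 83.8 and 58.3 CPM in E4 and E3 5xFAD, 142 and 210 in E4 and E3 aged, and 162 and 102 in E4 and E3 young (-0.97 ± 0.19, adjusted p = 0.00342). Arc, which acts at synapses, stood at 137 and 97.6 CPM in E4 and E3 5xFAD, 155 and 325 in E4 and E3 aged, and 226 and 185 in E4 and E3 young (-0.88 ± 0.20, adjusted p = 0.0174). For both genes the 5xFAD pair lay below all other sections. In upper layers the list had a median of -0.31 with 0 members called, and in layer 6 one of -0.58 with 3 of 26 lower. Whether the list differs between the layers was not tested. Without E4 young none of the 5 calls stood (adjusted p = 1.0 each), and with DESeq2 none did (adjusted p of 0.092 to 1.0).

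Markers of layer 6 and of layer 6b, the thin sheet under it, were lower in 5xFAD layer 5 spots, with 3 of 9 called (median -0.88). Cplx3, a complexin gene of layer 6b, stood at 9.22 and 14.9 CPM in E4 and E3 5xFAD, 26.2 and 26.7 in E4 and E3 aged, and 22.4 and 43.8 in E4 and E3 young (-1.52 ± 0.25, adjusted p = 0.000641). Ccn2, a matrix protein gene of layer 6b, stood at 19.0 and 23.8 CPM in E4 and E3 5xFAD, 73.0 and 37.1 in E4 and E3 aged, and 40.5 and 60.1 in E4 and E3 young (-1.34 ± 0.24, adjusted p = 0.00159). Foxp2, a transcription factor of layer 6 neurons, went with them (-1.03). The share of members that also reached the layer 6 score was lowest in the 5xFAD pair as well. In members that did not reach that score, the log2 fold changes were -0.69 for Cplx3, -0.58 for Ccn2 and -0.77 for Foxp2. None of the 3 passed there (adjusted p = 0.62, 0.636 and 0.493). That fit held fewer spots, its difference from the main fit was not tested, and Ccn2 is itself a gene of the layer 6 score. All 3 calls were lost without E3 young (adjusted p = 0.183 for Cplx3, 0.424 for Ccn2 and 0.446 for Foxp2) and with DESeq2 (0.095, 0.12 and 1.0). With 21 spots per section the log2 fold changes were -0.14 for Cplx3, -0.21 for Ccn2 and -0.32 for Foxp2, and none passed. The Foxp2 call was also lost without E4 5xFAD (0.368), E3 5xFAD (0.493) or E4 young (1.0).

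Mitochondrially encoded genes made up less of the RNA in 5xFAD layer 5, at 8.03% and 9.91% of UMIs in E4 and E3 5xFAD, 11% and 11.9% in E4 and E3 aged, and 13.2% and 13.1% in E4 and E3 young. Of 13 tested, 11 fell (median -0.63). mt-Co2, a cytochrome oxidase subunit, stood at 9170 and 11272 CPM in E4 and E3 5xFAD, 12926 and 14228 in E4 and E3 aged, and 15832 and 15936 in E4 and E3 young (-0.73 ± 0.11, adjusted p = 0.000242), with the groups in 3 separate ranges. Upper layer (median -0.57) and layer 6 spots (-0.53) moved the same way. Without E4 young the mt-Co2 call was lost (-0.61, adjusted p = 0.133). Hemoglobin genes, a measure of blood left in the tissue, fell in 4 of 4 (median -3.70), with a summed level of 29.0 and 14.3 CPM in E4 and E3 5xFAD against 173 and 364 in E4 and E3 young. In the RNA quality list Neat1, a nuclear RNA, rose (0.82) and 2 genes fell, the nuclear Malat1 (123 and 162 CPM in E4 and E3 5xFAD against 276 and 264 in E4 and E3 young, -1.03 ± 0.14) and Gm42418 (-1.0). The part of RNA quality and residual blood in the other results was not tested.

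Whether 5xFAD changed layer 5 more than the layers above was tested in the same sections. The difference passed for 6 of 12486 genes (0.0481%), all with a larger change in layer 5: Gfap by 1.29 ± 0.23 (adjusted p = 0.00842), Trem2 by 1.24 ± 0.23 (0.0149), C1qb by 1.04 ± 0.15 (0.000263), Ctss by 0.93 ± 0.16 (0.00556), C1qc by 0.88 ± 0.17 (0.0294) and Thy1 by 0.82 ± 0.10. Apart from Thy1 these are genes of microglia and reactive astrocytes. Summed complement levels were 1058.5 and 852 CPM in E4 and E3 5xFAD layer 5 against 174 and 235 in E4 and E3 young, while upper layers held 605 and 485 CPM in E4 and E3 5xFAD and 202 and 249 in E4 and E3 young. The DAM list had a median of 1.55 in layer 5, 0.78 in upper layers and 1.60 in layer 6.

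Against layer 6 in place of the upper layers none of the 6 differences passed: Gfap stood at 0.39, C1qb at 0.07, C1qc at 0.04, Ctss at 0.00 and Trem2 at -0.21 (adjusted p = 1 each). Against all other spots, Gfap (1.18, adjusted p = 1.07e-09) and Thy1 (0.72, 6.5e-13) passed, and C1qb (0.40, 0.334), Ctss (0.31, 0.784), Trem2 (0.27, 1.0) and C1qc (0.23, 1.0) did not. For these 4 genes a larger change in layer 5 was thus shown against the upper layers alone. The upper layer set of E4 aged held 16 spots with 1661 CPM of striatal genes against 323 to 440 in the other sections, and without that section all 6 genes passed with differences of 0.82 to 1.29. Without E3 5xFAD, Gfap was the only one of the 6 that passed (1.52). Without E3 young, Thy1 alone did (0.98), without E4 young Thy1 (0.67) and C1qb (1.1), and without E4 5xFAD Thy1 (0.91), C1qb (1.14) and Ctss (1.2).

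**Figure D4:**
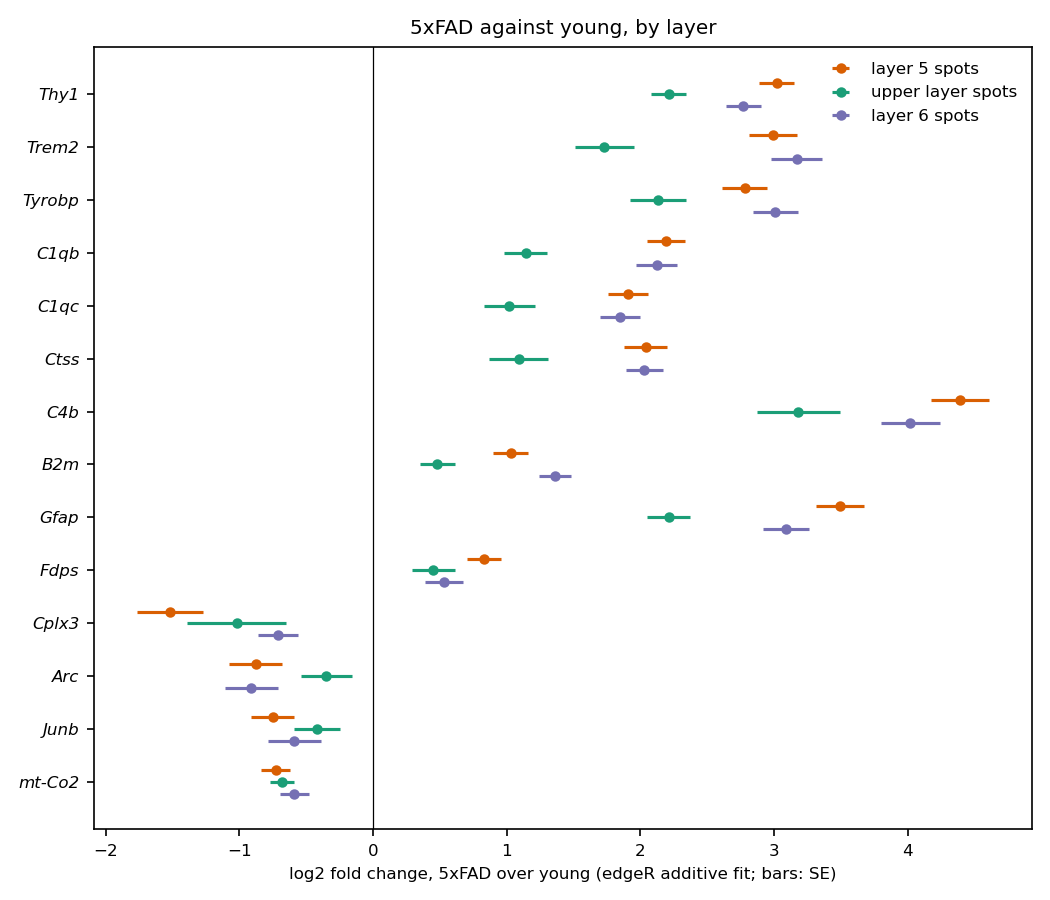
Change of 14 named genes in 5xFAD against young (log2 scale, ± SE, additive edgeR fit over 6 sections) in layer 5, upper layer and layer 6 spots. Gfap, Trem2, C1qb, C1qc, Ctss and Thy1 changed more in layer 5 than in upper layers, by 0.82 to 1.29, and Trem2 changed by 0.21 less than in layer 6, a difference that did not pass.

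Within the 5xFAD pair the E4 section was higher for most glial genes named here, with 1 section per genotype. The log2 ratio of E4 to E3 5xFAD layer 5 was 1.16 for Cst7, 0.71 for Gfap, 0.67 for C4b, 0.58 for Trem2, 0.51 for Ctss, 0.44 for Tyrobp and 0.21 for C1qb. It was 0.27 for Thy1, 0.18 for hAPP (-0.06 to 0.43, an interval that includes 0), 0.08 for B2m and 0.03 for Csf1r. Mobp, a myelin gene, stood at 0.82 and mt-Co2 at -0.30. These ratios compare 2 mice and were not tested. The 2 sections also differ in the spaceranger version of the matrix header, 1.2.2 for E4 and 2.0.0 for E3 5xFAD. Tissue positions without a barcode numbered 610 and 2. The part of these differences in the ratios was not tested.

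Aged layer 5 was set against young layer 5 to ask what ageing changes without amyloid. Of 12358 genes 13 passed (0.105%), 11 higher (0.089%) and 2 lower (0.0162%), all in the same direction in both genotypes, with a median of all genes of -0.01. At an unadjusted p under 0.05 there were 700. Of the 27 immediate early genes 6 rose and none fell (median 0.45), and 25 had a positive log2 fold change: Npas4, Fosb, Fos, Btg2, Egr4 and Junb were the 6.

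Npas4, a transcription factor switched on by calcium entry in active neurons, stood at 142 CPM (112 to 178) and 199 (184 to 215) in E4 and E3 aged layer 5, 39.9 and 9.52 in E4 and E3 5xFAD, and 21.2 (16.5 to 26.7) and 23.7 (18.1 to 30.4) in E4 and E3 young. Its log2 fold change was 3.02 ± 0.27 (adjusted p = 2.44e-07). Fos, the founding immediate early gene, stood at 197 and 202 CPM in E4 and E3 aged, 65.4 and 29.8 in E4 and E3 5xFAD, and 62.9 and 33.3 in E4 and E3 young (2.15 ± 0.19, adjusted p = 2.44e-07). In each gene both aged sections lay above all 4 others.

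Fosb, its relative, stood at 69.3 and 63.5 CPM in E4 and E3 aged, 10.6 and 7.74 in E4 and E3 5xFAD, and 13.9 and 8.14 in E4 and E3 young (2.60 ± 0.24, adjusted p = 4.55e-07). Egr4, a zinc finger factor gene, stood at 157 and 130 CPM in E4 and E3 aged, 67.3 and 38.1 in E4 and E3 5xFAD, and 67.7 and 50.8 in E4 and E3 young (1.29 ± 0.16, adjusted p = 3.27e-05). Again the aged pair stood apart. Gadd45g, an inducible gene outside the list, rose by 1.94 ± 0.21 (adjusted p = 4e-06), Btg2 by 1.3 ± 0.21 (0.00369) and Junb by 0.94 ± 0.15 (0.00369).

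Not every early gene followed. Arc stood at 155 CPM in E4 aged and 325 in E3 aged against 226 and 185 in E4 and E3 young, a log2 ratio of -0.54 (-0.88 to -0.21) in E4 and 0.81 (0.66 to 0.97) in E3, and Egr1 of -0.23 in E4 and 0.95 in E3. These opposite values come from single sections, that of E4 aged with 21 spots, and were not tested. In the upper layers the aged changes were 3.67 for Npas4, 2.72 for Fosb and 2.33 for Fos, and in layer 6 they were 3.20, 2.39 and 1.94. Between layer 5 and upper layers the difference passed for 0 of 12486 genes (0%) by edgeR, with 518 at an unadjusted p under 0.05. The early gene change was therefore not shown to be particular to layer 5.

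**Figure D5:**
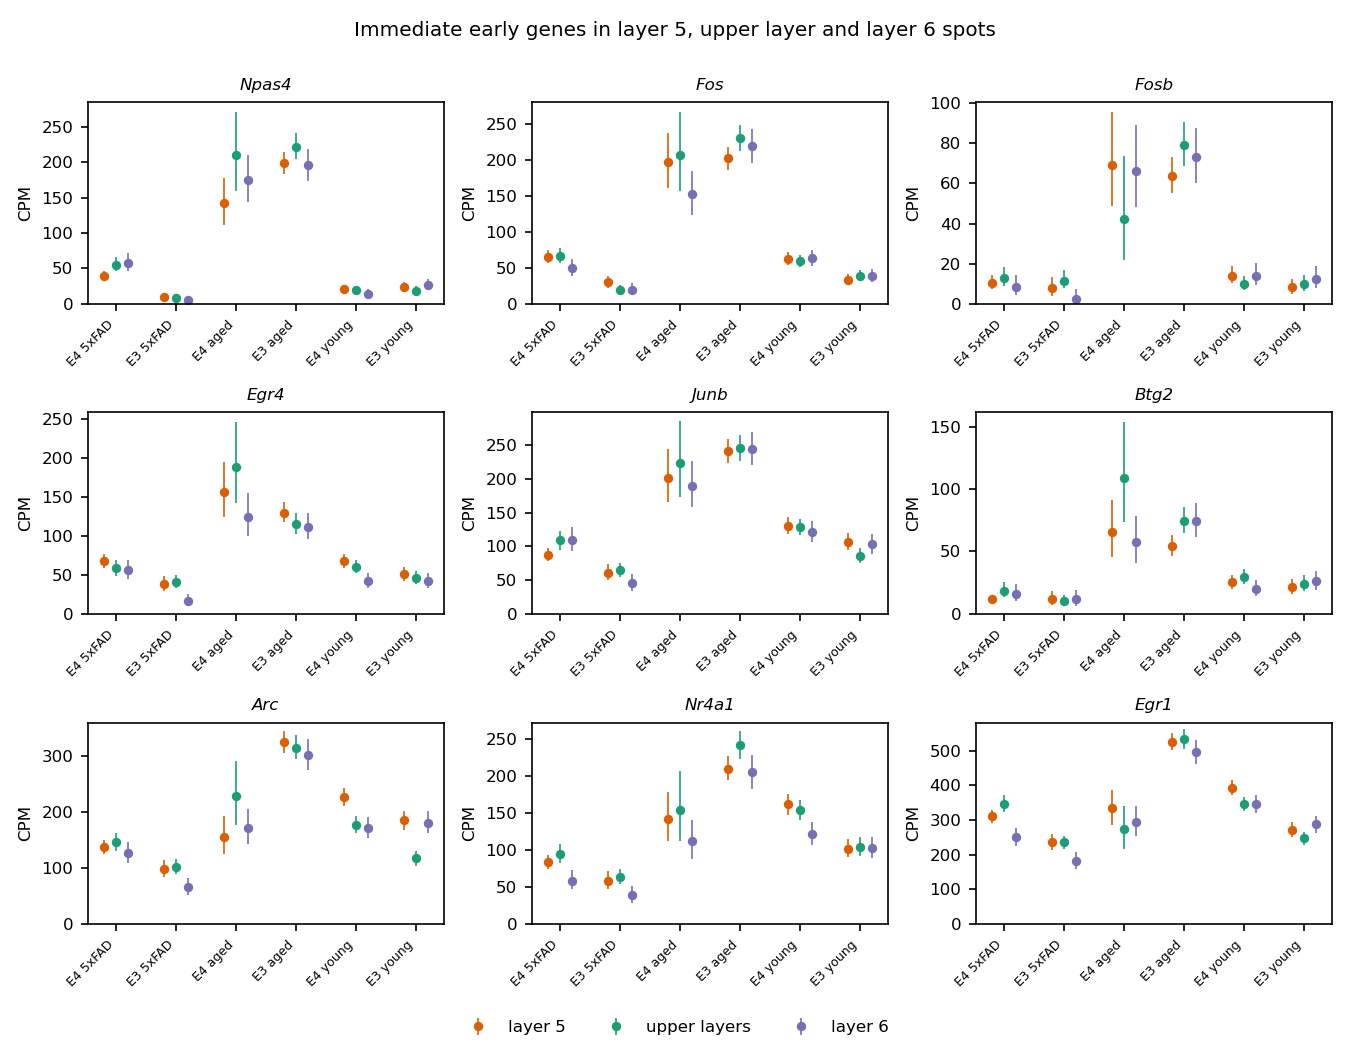
Levels (CPM) of 9 immediate early genes in layer 5, upper layer and layer 6 spots of each section, with exact 95% Poisson intervals. In layer 5, Npas4, Fos and Fosb are highest in both aged sections (Fos at 197 and 202 against 29.8 to 65.4 in the other 4 sections), and Arc is high in E3 aged (325) but not in E4 aged (155).

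The other aged calls were few. C4b (1.70 ± 0.34, adjusted p = 0.0421) and Gfap (1.16 ± 0.23, adjusted p = 0.0366) rose, as they did in 5xFAD. Ptgs2, the inducible cyclooxygenase gene, rose by 1.76 ± 0.35 and Arl4d, a small GTPase gene, by 1.11 ± 0.22 (adjusted p = 0.0366 each). Hbb-bs (-1.33 ± 0.20) and Hbb-bt (-2.03 ± 0.41), hemoglobin genes, fell. Hbb-bs stood at -1.67 without E4 young, where it stayed among the calls, and at -0.60 without E3 young. Without E4 young, Fos, Fosb and Npas4 stayed among the calls and Egr4 (adjusted p = 0.182), Gadd45g (0.0509), Btg2 (0.316), Junb (0.681), C4b, Gfap and Arl4d (1.0 each), Ptgs2 (0.846) and Hbb-bt (0.0961) did not. Without E3 young, Btg2 (0.71), Junb (0.89), Gfap (0.793), Ptgs2 (0.973) and Arl4d, Hbb-bs and Hbb-bt (1.0 each) were lost, and without E3 aged Junb (0.077), C4b (0.149), Gfap (0.728), Arl4d (0.815) and Hbb-bt (0.95). DESeq2 called 4 of the 13, Fos, Fosb, Egr4 and Gadd45g, and not Npas4 (2.93, adjusted p = 1.0) or the other 8.

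The promoters of the early genes that rose are shown because many such genes are switched on through cAMP response elements, bound by CREB. RefSeq starts of GRCm38.p6 were used, with windows from 250 bases before to 50 bases after the start. The short site TGACG, on either strand, was found in all 6 called genes and in 16 of 21 genes of the list with a window. Of all 27025 genes with a window 23% had it, and of all 32851 windows 20.8%. The full palindrome TGACGTCA, which contains the short site, was found in Btg2 alone of the 6 (2.03% of all genes). The CArG box that serum response factor binds was found in none of the 6 and in 1 of the 21 list genes (1.81% of all genes). At that share 6 genes would mostly hold none, so that its absence here says little. A match is no evidence of binding, and the windows do not reach the enhancers of these genes. The 150 bases before the start follow for the 4 genes with a short site there, with each short site in capitals. Fos lies on chromosome 12, plus strand (85473740 to 85473889), with short sites 129 and 66 bases before the start. Fosb lies on chromosome 7, minus strand (19310046 to 19310195), with 1 at 60 bases, Junb on chromosome 8, minus strand (84978749 to 84978898), with 1 at 106 bases, and Egr4 on chromosome 6, minus strand (85513590 to 85513739), with 1 at 109 bases.
Fos: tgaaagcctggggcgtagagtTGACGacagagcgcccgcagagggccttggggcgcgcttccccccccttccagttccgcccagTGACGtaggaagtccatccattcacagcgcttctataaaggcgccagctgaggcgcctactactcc
Fosb: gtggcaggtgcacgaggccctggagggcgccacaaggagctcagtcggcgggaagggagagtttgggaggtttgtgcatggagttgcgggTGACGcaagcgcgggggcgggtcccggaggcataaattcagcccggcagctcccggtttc
Junb: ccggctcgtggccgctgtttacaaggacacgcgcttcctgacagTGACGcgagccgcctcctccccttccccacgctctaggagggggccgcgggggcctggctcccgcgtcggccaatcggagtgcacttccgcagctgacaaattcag
Egr4: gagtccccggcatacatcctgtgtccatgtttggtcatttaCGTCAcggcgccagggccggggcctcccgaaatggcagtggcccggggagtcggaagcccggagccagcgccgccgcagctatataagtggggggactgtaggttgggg

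E4 layer 5 was set against E3 layer 5 over the 3 conditions to ask what differs between the genotypes. E4 and E3 mice came from separate lines, so that the APOE allele and other differences between the lines cannot be told apart. Of 12358 genes 10 passed (0.0809%), 3 higher in E4 (0.0243%) and 7 lower (0.0566%), each in the same direction in all 3 conditions, with a median of all genes of -0.00. Serpina3n, a secreted protease inhibitor of reactive astrocytes, stood at 134 CPM in E4 5xFAD, 163 in E4 aged and 92.5 in E4 young, against 55.3 in E3 5xFAD, 15.2 in E3 aged and 15.5 in E3 young. Every E4 section lay above every E3 section, and the log2 fold change was 2.22 ± 0.23 (adjusted p = 3.64e-06). It was 2.5 in upper layer and 2.31 in layer 6 spots. DESeq2 did not call it (2.39, adjusted p = 0.346). Cort, the gene of the interneuron peptide cortistatin, was higher too (0.98 ± 0.19, adjusted p = 0.0474), at 32.7, 41.2 and 47.5 CPM in E4 5xFAD, aged and young against 11.3, 20.6 and 28.7 in E3. The third, Eps8l1 (4.27), averaged under 10 CPM and is named for completeness.

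Lower in E4 were 7 genes. Gm47283, annotated on chromosome Y (90784738 to 90816464), stood at 2.79, 1.87 and 2.42 CPM in E4 5xFAD, aged and young against 92.2, 73.0 and 39.2 in E3 (-4.70 ± 0.25, adjusted p = 4.85e-12), although all mice are female. Lrrc17, a leucine-rich repeat gene (chromosome 5, 21543559 to 21575904), stood at 166, 221 and 222 CPM in E4 5xFAD, aged and young against 450, 346 and 393 in E3 (-1.02 ± 0.13, adjusted p = 8.29e-05). For both genes the genotypes did not overlap. Bc1, a noncoding RNA carried into dendrites, stood at 3300, 6392 and 5231 CPM in E4 5xFAD, aged and young against 9000, 7077 and 8128 in E3 (-0.77 ± 0.15, adjusted p = 0.0444). Wdfy1 (-1.2 ± 0.23), Zbtb7a (-0.66 ± 0.13), Hbb-bt (-1.98 ± 0.39) and the hypothalamic Pmch (-2.52 ± 0.50) were the rest.

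Gm47283 was called under all 17 alternatives tried, Serpina3n and Lrrc17 under 16 and each of the other genes under 8 or fewer. Without E4 young, the calls of Cort (adjusted p = 0.714), Bc1, Wdfy1 and Zbtb7a (1.0 each) were lost. Those of Pmch (0.455), Hbb-bt and Eps8l1 were lost there too. Without E3 young, Cort (0.2), Wdfy1 (0.79), Bc1 (0.0966), Zbtb7a, Hbb-bt and Eps8l1 lost their calls. Human APOE (hAPOE) itself did not pass, with log2 ratios of E4 to E3 of 0.22 in 5xFAD, 0.25 in aged and -0.06 in young layer 5. No list of layer 5, glial or metabolic genes had more than 1 member called for genotype, and the DAM list had a median of 0.18. The E4-E3 difference passed between layer 5 and upper layers for 1 of 12486 genes (0.00801%), Hbb-bt (-3.36 ± 0.59, adjusted p = 0.0332), and this was 0.81 (adjusted p = 1.0) without E4 young or without E3 young.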

How the data were processed

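The authors deposited counts, UMIs per gene and spot barcode, for 6 Visium sections, 1 per group. Per the labels, the submitters' processing notes name Space Ranger 1.3.0 and STAR 2.5.1b with mm10 and GRCh38, while the matrix headers name spaceranger 2.0.0 for E3 5xFAD and 1.2.2 for the other 5 sections. The counts were not normalized. All 32285 mouse genes and 3 human genes, APOE and APP among them, were kept. Values of some genes are not reported here.

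Spots had to lie in the tissue mask, have a barcode in the matrix and hold at least 1000 UMIs. No doublet call applies to spots. Upper layer and layer 6 spots took their own pooled 94th percentile, and layer 5 members and spots in both were left out. UMIs were summed per section and set. The 6 layer 5 sums were fitted by edgeR 4.0.16 with additive terms for genotype and condition (quasi-likelihood test, TMM, filterByExpr, Benjamini-Hochberg adjusted p at or below 0.05, 2 residual degrees of freedom). The difference between layers was fitted to 12 sums with the section as a block. SE is the size of the log2 fold change over the square root of F. Alternatives were DESeq2 1.42.0, RLE scaling, other filters, percentiles and spot sets, and leaving out each section. Levels have exact Poisson and ratios exact conditional binomial 95% intervals. These cover counting error only. Layer 5 sums held 533962 to 3580404 UMIs, so that E4 aged is the least precise section.

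Genes were named by rule: the score genes, the transgenes and related genes, the 12 called genes with the largest change in each direction per contrast (mean of at least 10 CPM, same direction in each pair), up to 4 members per list and the called differences between layers. Layer markers are those listed for the check of the label. Other genes were named after their values were seen. The members, lists and tests were chosen with earlier results of these data known. Gene coordinates are from GENCODE M21 (GRCm38). On simulated sums the layer 5 fits called 62.9% to 73.7% of 2-fold and 91.9% to 95.9% of 4-fold changes, and the fits of the difference between layers 22.2% to 40.4% and 76.3% to 89.9%. The simulation gave every gene the same variability between sections, which real genes need not have.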

Additional observations from a re-analysis of the deposited data

Results flagged for a closer look

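The change in 5xFAD against young was larger in layer 5 than in upper layer spots, by the test of the difference, for Gfap (1.29), Trem2 (1.24), C1qb (1.04), Ctss (0.93), C1qc (0.88) and Thy1 (0.82), and the E4-E3 difference was lower in layer 5 for Hbb-bt (-3.36). These differences were tested, and their adjusted p-values stand in the report.

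Barcodes outside the tissue mask, which no comparison uses, also reached the layer 5 score. Of those with at least 1000 UMIs, 32 of 407 did so in E4 5xFAD, 6 of 202 in E3 aged and 13 of 337 in E4 young. In E3 young it was 2 of 172, in E3 5xFAD 0 of 5 and in E4 aged 0 of 152.

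Some genes moved in opposite directions in the 2 genotypes, with counting intervals that exclude 0 on both sides. These differences rest on 1 section per group and were not tested. In 5xFAD against young layer 5 the log2 ratios, E4 first and E3 second, were 8.36 and -2.01 for Oxt, -4.36 and 2.48 for Hcrt, -7.26 and 1.51 for Pmch, 2.20 and -2.13 for Ttr, 0.11 and -0.17 for Slc17a7, and -0.10 and 0.08 for Gapdh. Oxt, Hcrt and Pmch are hypothalamic and Ttr is a choroid plexus gene. In aged against young layer 5 they were 1.67 and -2.01 for Ttr, -0.21 and 0.07 for Nrgn, 0.45 and -0.10 for Slc17a7, 0.77 and -0.91 for Sst, -0.61 and 0.12 for Snap25, -0.23 and 0.95 for Egr1, -0.54 and 0.81 for Arc, 0.18 and -0.16 for Meg3, and 0.21 and -0.11 for Aldoa. The E4 aged section enters each aged ratio of E4 with 21 spots.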

How the results depend on the processing

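Counts of called genes depended on the tool and on single sections, and the cause was not tested except where fewer genes, spots or sections entered. For 5xFAD against young (171) they were 51 with DESeq2, 88 at the 97th percentile, 106 with the percentile taken within each section, 89 with members that had at least 2 member neighbours, 24 with 21 spots per section and 92 with members outside the layer 6 score. For aged against young (13) they were 4 with DESeq2, 68 with no filter on low counts, 8 at the 97th and 8 at the 90th percentile, 5 within section, 3 with equal spots and 5 outside the layer 6 score. For E4 against E3 (10) they were 2 with DESeq2, 48 with no filter, 3 each with at least 50 UMIs, the 90th percentile, the percentile within section, 5000 UMIs per spot and equal spots, 4 with 2 neighbours and 2 outside the layer 6 score.

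Leaving out 1 section gave 33 to 448 calls for 5xFAD (E4 young left out gave 33, E4 5xFAD 70, E3 young 80, E4 aged 423 and E3 aged 448), 7 to 335 for aged (7 without E3 young, 335 without E3 aged) and 6 to 57 for E4 (6 without E4 young, 57 without E3 aged). For the difference between layer 5 and upper layers the count for 5xFAD (6) was 3 against layer 6 and 25 against all other spots (2 to 41 without 1 section). For aged (0) it was 6 against layer 6, 42 against all other spots and 1 with at least 50 UMIs (4 to 70 without 1 section). For E4 (1) it was 5 against layer 6, 25 against all other spots, 3 with RLE and 3 with at least 50 UMIs (5 to 10 without 1 section). With at least 2 member neighbours, layer 5 spots made up 5.08%, 2.32%, 0.692%, 5.33%, 4.41% and 3.14% of E4 and E3 5xFAD, E4 and E3 aged, and E4 and E3 young.

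Signs changed for few genes, given here with their range over the sections left out. In 5xFAD these were Hcrt (-5.28 without E3 5xFAD, 2.93 without E4 5xFAD), Pmch (-7.09 and 1.40 likewise) and Ttr (0.96 without E3 5xFAD, 1.94 without E3 young, -2.02 without E4 young). In aged they were Hbb-bs (0.67) with equal spots, Ttr (1.80 without E3 young, -2.17 without E4 young), Sst (0.70 without E3 aged, -0.90 without E4 aged) and Arc (-0.61 and 0.84 likewise). Between layers they were Trem2 (-0.21) against layer 6 and Hbb-bt (0.81 without E4 young or E3 young, -3.90 without E4 aged). No paired analysis was possible because each group has 1 section, so that no replicate numbers pair samples beyond the genotype, condition and section terms that the fits already hold. The 21 spots of E4 aged set the least precise values.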
